A study of Mus musculus with 6 samples.

Results

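Alkbh5 and Fto encode the RNA demethylases that erase N6-methyladenosine (m6A), and the accessibility of their loci was read from ATAC-seq peaks of mouse embryonic stem cells. ATAC-seq uses a transposase that inserts sequencing adapters into open DNA, so a peak marks a stretch where many fragments ended. All peaks that overlapped a window of 80.0 kb around Alkbh5 (chromosome 11 from 60400000 to 60480000, GRCm39) or of 460 kb around Fto (chromosome 8 from 91990000 to 92450000, GRCm39) were taken, whatever their height. Peaks of the 6 libraries that shared at least 1 bp were merged into regions, which gave 15 regions in the Alkbh5 window and 93 in the Fto window, 108 of the 259376 mouse regions in all.

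The cells were of the line E14TG2a, in 3 genotypes of 2 libraries each: Alkbh5 knockout (KO), Alkbh5 del-cIDR, an Alkbh5 allele without the part called cIDR in the labels (intrinsically disordered regions are the subject of the series title), and wild type (WT). All 3 were grown in the same medium with 15% serum, 1000 U/ml LIF, the MEK inhibitor PD0325901 at 1 µM and the GSK3 inhibitor CHIR99021 at 3 µM, and 10 µl of spike-in nuclei went into each reaction. The labels give neither the number of clones per mutant nor the bases removed, so genotype and cell line cannot be told apart, and they do not say that replicates were separate cultures. The labels name no engineered change in Fto. Because the position of the Alkbh5 edits is not given in the sources used here, the peaks do not check the genotype labels.

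m6A is placed on nuclear RNA by the methyltransferase complex around METTL3 and METTL14 and is read by YTH-domain proteins. ALKBH5 and FTO belong to the AlkB family of iron- and alpha-ketoglutarate-dependent dioxygenases, which remove the methyl group by oxidation. ALKBH5 is a largely nuclear enzyme with m6A in mRNA as its main substrate, and FTO also acts on the methylated adenosine next to the mRNA cap. In mouse embryonic stem cells m6A on mRNA is known for limiting the lifetime of transcripts of pluripotency genes.

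The windows hold more than the genes themselves. In RefSeq, Alkbh5 spans 20830 bp, 26.0% of the length of its window, and Fto spans 355067 bp, 77.2% of the length of its window. The protein-coding neighbours of Alkbh5 are Myo15, which encodes an unconventional myosin, on one side and Llgl1, a cell polarity gene, on the other, with 11 pseudogenes between Alkbh5 and Llgl1. The neighbours of Fto are Rpgrip1l, which encodes a protein of the ciliary transition zone, and Irx3, a homeobox gene. The annotation is of another build (GRCm38.p6) than the peaks and was not used for positions, so no peak below is called a promoter, an exon or an intron.

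The sequence just before each start is shown because it holds the base composition and the letters that a reader would set against an open region. Both are the 250 bases before the RefSeq start on the plus strand of GRCm38.p6, and these positions cannot be set beside those of the peaks. Capitals mark the motif matches in Alkbh5, at chr11:60537433-60537682, and in Fto, at chr8:91313275-91313524, the 198 bases that the promoter of Rpgrip1l shares on the opposite strand.

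Alkbh5: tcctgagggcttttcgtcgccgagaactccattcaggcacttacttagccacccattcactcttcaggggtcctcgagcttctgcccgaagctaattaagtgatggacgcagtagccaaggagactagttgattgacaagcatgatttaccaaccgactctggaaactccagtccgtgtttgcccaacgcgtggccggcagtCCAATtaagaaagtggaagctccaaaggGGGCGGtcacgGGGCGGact

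Fto: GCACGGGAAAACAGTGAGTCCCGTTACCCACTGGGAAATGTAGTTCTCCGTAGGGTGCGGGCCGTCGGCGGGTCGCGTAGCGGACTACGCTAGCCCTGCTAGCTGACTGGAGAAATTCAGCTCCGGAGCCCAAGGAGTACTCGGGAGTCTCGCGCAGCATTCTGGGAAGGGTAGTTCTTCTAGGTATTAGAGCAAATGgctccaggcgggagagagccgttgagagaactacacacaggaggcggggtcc

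The Alkbh5 sequence held 14 CpG dinucleotides and the Fto sequence 18, against a median of 6 over 32851 RefSeq promoters of that length. GC content was 54.0% for Alkbh5 and 59.2% for Fto, against a median of 52.4%. GGGCGG, the GC box bound by SP-family factors, occurred at 2 places in Alkbh5 and CCAAT, the CCAAT box, at 1, and neither occurred in Fto. Of all promoters, 32.7% held GGGCGG and 33.9% held CCAAT on either strand. The other 5 motifs searched on both strands, CCGGAAG (ETS factors, in 6.91% of promoters), TGACGTCA (CREB factors, 1.55%), ATGCAAAT (the octamer, 1.60%), the palindromic NRF1 motif (0.782%) and the YY1 motif (0.301%), were not among these letters in either gene.

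The Alkbh5 window holds the edited gene. Its tallest region was called in all 6 libraries, and so were 5 others, together 40.0% of its regions against 38.3% of all merged regions. Summit height was given in tags, the number of sequenced tags piled up at the summit, solved from the fold and p that the authors deposited for each peak. The number of peaks was 8 and 9 in the KO libraries, 13 and 11 in del-cIDR and 14 and 12 in WT. Both KO libraries thus had fewer peaks here than any other library, and the del-cIDR and WT ranges overlapped. Some regions were called as several peaks. Counted as merged regions, the calls were 8 and 7 in KO, 10 and 8 in del-cIDR and 12 and 11 in WT. By that count KO replicate 1 equalled del-cIDR replicate 2, and both WT libraries were above both mutants. The WT lists were also the longest as a whole. The peaks covered 4.13% and 4.40% of the window in KO, 5.89% and 5.51% in del-cIDR and 5.80% and 6.14% in WT. With 2 libraries against 2, an exact two-sided permutation test cannot give a p below 0.333, and no test between genotypes was made.

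**Figure D1:**
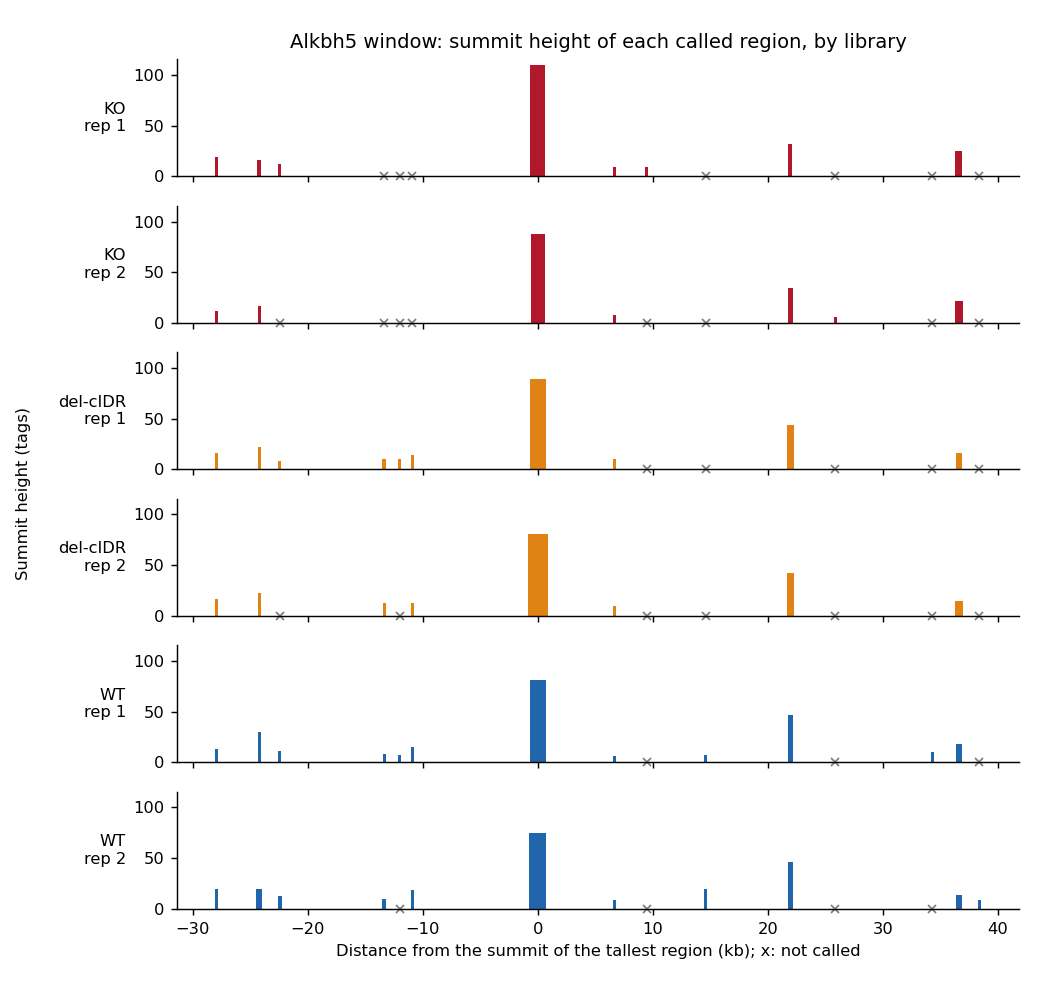
Summit height in tags (vertical axis, linear from 0) of the called regions of the Alkbh5 window against distance from the summit of the tallest region (kb), 1 panel per library; a bar is as wide as its peak or a minimum width, and a cross marks a region not called in that library. The tallest region stood at 75 to 110 tags in all 6 libraries, and the regions 13.4 and 10.9 kb before it carry crosses in both KO panels.

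The tallest region of the Alkbh5 window, chosen after the heights were seen, lies from 60427961 to 60429804. It held 110 and 88 tags in the KO libraries, 89 and 81 in del-cIDR and 81 and 75 in WT. The raw heights of KO and WT did not overlap, while those of KO and del-cIDR did. Its summits fell within 8 bp of each other in the 6 libraries, from 60428423 to 60428431, and they did not separate the genotypes. It was broad, with a main peak of 1295 and 1225 bp in KO, 1351 and 1775 bp in del-cIDR and 1341 and 1478 bp in WT, and 1 del-cIDR and 1 WT library had a second, smaller peak called beside the main one.

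The fold is the authors' ratio of the pileup to the local background and is used here only to rank peaks within a list. By fold, this region stood at the 83.1 and 84.3 percentile of the KO lists, the 78.1 and 74.3 percentile of the del-cIDR lists and the 83.2 and 75.1 percentile of the WT lists. The KO and WT percentiles overlapped there, and lists of different length do not allow a change to be read from such ranks. Among the 99146 regions called in all 6 libraries, a set of the same size in each list, its height ranked at the 88.8 and 89.4 percentile in KO, 87.5 and 85.7 in del-cIDR and 86.0 and 80.5 in WT. On that common set both KO ranks lay above both WT ranks, and 1 del-cIDR rank lay between the WT ranks.

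For a comparison of heights, the median log2 height of the same list was subtracted from each log2 height, with the median over regions called in all 6 libraries on the 16 autosomes other than 6, 8 and 11. On this scale the tallest Alkbh5 region was at 1.78 ± 0.06 in KO, 1.43 ± 0.06 in del-cIDR and 1.20 ± 0.20 in WT (SD, n = 2 each). KO exceeded WT by 0.58 log2 and del-cIDR exceeded WT by 0.23 log2, with no overlap between libraries in either case. Over the same 16 autosomes, 36.5% of regions had both KO heights above both WT heights and 23.6% had both del-cIDR heights above both WT heights; the 2 comparisons share the WT libraries. The KO difference was at the 91.2 percentile and the del-cIDR difference at the 79.5 percentile of all such regions on the 16 autosomes. Taller regions had more positive differences in general: for regions of 50 to 150 tags on these autosomes the median was 0.18 log2 for KO and 0.06 log2 for del-cIDR, and the highest decile began at 0.52 and 0.30. Within that height class the difference was at the 93.3 percentile for KO and at the 82.0 percentile for del-cIDR. Among all such regions of chromosome 11 it was at the 81.8 percentile for KO and the 80.8 percentile for del-cIDR, and for KO the chromosome 11 regions of 50 to 150 tags had a median of 0.25 log2 with the highest decile from 0.73 upward. Measured by the deposited fold in place of height, the differences were 0.33 log2 for KO and 0.05 log2 for del-cIDR, and relative to chromosome 11 alone the KO difference was 0.39 log2. The chromosome 11 values for KO include a distant stretch with raised KO heights, described below, that does not hold Alkbh5. Without WT replicate 1 the del-cIDR difference was 0.39 log2, and without WT replicate 2 it was 0.11 log2.

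Over the 6 regions called everywhere, the median scaled height of the Alkbh5 window was -0.60 and -0.37 in KO, -0.77 and -0.65 in del-cIDR and -0.46 and -0.85 in WT. The genotypes overlapped. The difference from WT was 0.17 log2 for KO and -0.05 log2 for del-cIDR, and the KO value turned to -0.02 log2 without WT replicate 2 and was 0.36 log2 without WT replicate 1. Relative to chromosome 11 it was -0.02 log2. The chromosome 11 values for KO include a stretch 48 to 6 Mb before the window. Its 2 Mb bins had a median KO minus WT difference of 0.48 log2. From 2 Mb before the window to the end of the chromosome the median was 0.03 log2. Both scaled KO heights were above both WT heights in 3 of the 6 regions and below in none, against 47.3% above and 17.1% below on chromosome 11 outside the window. Both del-cIDR heights were above both WT heights in 2 regions, and below in none, against 24.3% above and 19.5% below on chromosome 11 outside the window. Both KO heights were above both del-cIDR heights in 2 regions and below in 1, against 45.3% above and 16.5% below on chromosome 11 outside the window. On the 16 autosomes, by the same rule, KO was above WT in 36.5% of regions and below in 22.7%. There del-cIDR was above WT in 23.6% and below in 20.1%, and KO was above del-cIDR in 34.6% and below in 22.0%.

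The region with the highest fold of the window, from 60450086 to 60450649, went the other way. It held 32 and 34 tags in the KO libraries, 44 and 42 in del-cIDR and 47 and 46 in WT, so both KO libraries were below the other 4. Its fold ranked at the 84.1 and 90.0 percentile in KO, 92.7 and 91.6 in del-cIDR and 95.2 and 92.1 in WT. On the scaled heights KO was 0.25 log2 below WT, with values of -0.04 and 0.44 in KO and 0.55 and 0.35 in WT. Scaled for the list, the KO and WT libraries overlapped, and del-cIDR differed from WT by -0.01 log2. The summits again lay within 5 bp of each other.

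The remaining 4 regions called in every library were lower. The region from 60464492 to 60465257 had 25 and 22 tags in the KO libraries, 16 and 15 in del-cIDR and 18 and 14 in WT, and its KO minus WT difference of 0.80 log2 was the largest of the 6. Both KO libraries were above the other 4. The region from 60403266 to 60404363 had 16 and 17 tags in the KO libraries, 22 and 23 in del-cIDR and 30 and 20 in WT, and it was called as 1 to 3 separate peaks per library. Its scaled heights differed by -0.33 log2 between KO and WT, with overlap. The region from 60435002 to 60435281 held 6 to 10 tags, near the lowest height that the lists contain (5 or 6 tags). Its scaled heights lay above WT without overlap in both mutants, by 0.45 log2 in KO and 0.55 log2 in del-cIDR. The latter was the largest del-cIDR difference of the 6 regions. In its height class on the 16 autosomes these differences stood at the 81.0 and 93.7 percentile. The region from 60400322 to 60400636 held 12 to 20 tags, with list medians of 17 to 21 tags.

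Regions called in both WT libraries and in neither KO library numbered 3 of 15 in the Alkbh5 window. Over all merged regions this pattern had a background of 7.22%, and on chromosome 11 of 6.15%. All 3 were low. The first, from 60414761 to 60415329, was not called in KO, held 10 and 13 tags in del-cIDR and 8 and 10 in WT. The second, from 60417296 to 60417654, was not called in KO, held 14 and 13 tags in del-cIDR and 15 and 19 in WT. The third, from 60442917 to 60443104, was called in neither KO nor del-cIDR and held 7 and 20 tags in WT. The third was the 1 region called in both WT and neither del-cIDR library (background 5.33%, and 5.04% on chromosome 11). The first and second, 13.4 and 10.9 kb before the summit of the tallest region, were thus called in del-cIDR, and the third, 14.6 kb after it, was missing from both mutants. A region between the first and second, from 60416260 to 60416541, was called in 1 del-cIDR library (10 tags), 1 WT library (7 tags) and no KO library.

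A missing call does not show that a region was closed, since it may lie below the calling limit. Of all regions called in both WT libraries with a mean height under 30 tags, 19.8% were missing from both KO libraries and 14.9% from both del-cIDR libraries. In the Alkbh5 window these were 3 of 8 and 1 of 8. With lists of equal length, or with only peaks of −log10 q of at least 5, the second region was the single one left with the WT-not-KO pattern. No region had the opposite pattern, called in both KO and neither WT library (background 1.89%, and 2.46% on chromosome 11), and none was called in both del-cIDR and neither WT library (background 0.931%, and 0.992% on chromosome 11). No region was called in both KO and neither del-cIDR library (background 3.5%, and 4.0% on chromosome 11), and the first and second regions were the 2 called in both del-cIDR and neither KO library (background 3.59%, and 3.07% on chromosome 11). Without WT replicate 2 the WT-not-KO pattern held for 5 regions, with 1 WT library standing for its genotype and no share over all regions given for that setting.

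Called in a single library were 4 of the 15 regions (26.7%, against 25.2% of all merged regions), with 6 to 10 tags. The highest summit of any region that was not called everywhere was 20 tags. Neither mutant therefore lacked the call of a region of the Alkbh5 window above 20 tags. Regions called in all 6 libraries had a median width of 665 bp, and those called in fewer had one of 188 bp. A call depends on height and a merged width on the number of calls, so this contrast is no finding.

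The Fto window is longer and held more regions, and its tallest region was taller than that of the Alkbh5 window. By the genotype mean of the median peak height, the Fto window was above the Alkbh5 window in KO and below it in del-cIDR and WT. Its 93 regions compare with a median of 51 in stretches of the same length on chromosome 8 (83.3% held fewer), and the 15 of the Alkbh5 window with a median of 11 on chromosome 11 (64.2% held fewer). It had 62 and 58 peaks in KO, 47 and 49 in del-cIDR and 62 and 64 in WT. The del-cIDR libraries were below the other 4, and they were also below them over chromosome 8 as a whole. That chromosome had 10683 and 9797 peaks in KO, 8244 and 8081 in del-cIDR and 10654 and 10247 in WT. The KO lists as a whole were shorter than the WT lists, and per 10000 mouse peaks of the same list the window held 3.77 and 3.85 in KO, 2.98 and 3.16 in del-cIDR and 3.20 and 3.46 in WT. By that measure both KO libraries stood above the other 4 and del-cIDR lay below WT. The measure takes the whole list as its base, so differences shared by all of chromosome 8 remain in it. The peaks covered 4.73% and 4.51% of the window in KO, 3.28% and 3.68% in del-cIDR and 4.19% and 4.30% in WT.

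**Figure D2:**
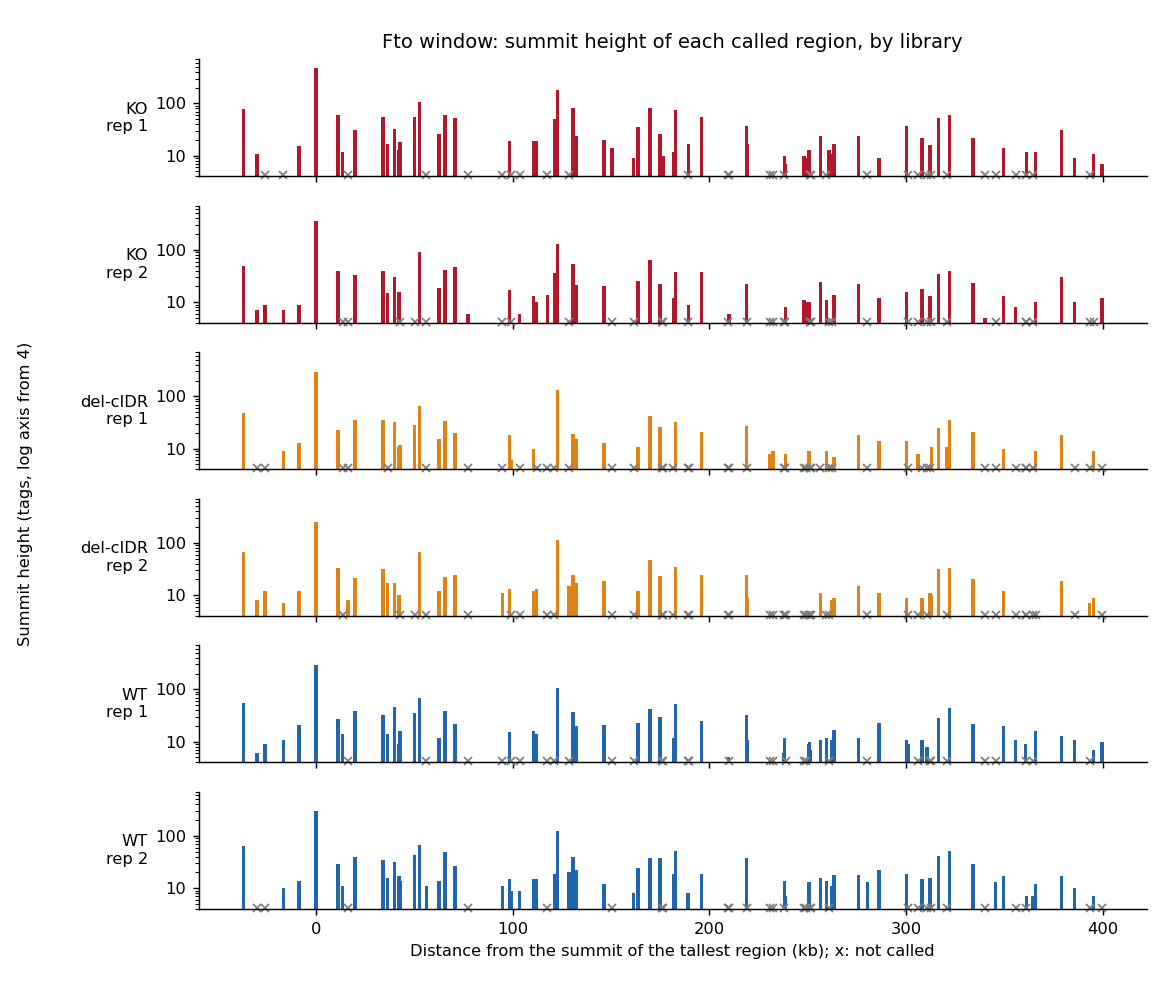
Summit height in tags (vertical axis, log scale from 4) of the called regions of the Fto window against distance from the summit of the tallest region (kb), 1 panel per library; crosses mark regions not called in that library. The tallest region held 469 and 362 tags in the KO libraries, 288 and 254 in del-cIDR and 290 and 306 in WT.

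The tallest region of the Fto window, chosen after the heights were seen, lies from 92039675 to 92040439. It held 469 and 362 tags in the KO libraries, 288 and 254 in del-cIDR and 290 and 306 in WT, the next tallest region averaging 132 tags. The KO libraries were the highest, and del-cIDR and WT were close. The summit was at the same base, 92040037, in all 6 libraries. The peak was 735 and 727 bp wide in KO, 733 and 734 bp in del-cIDR and 716 and 748 bp in WT. Its fold ranked between the 99.2 and 99.5 percentile in every list, too close to the top for ranks to show a difference. The log2 height relative to the 16 autosomes was 3.84 ± 0.02 in KO, 3.10 ± 0.10 in del-cIDR and 3.13 ± 0.07 in WT (SD, n = 2 each). KO exceeded WT by 0.71 log2, without overlap. The difference was 0.38 log2 relative to chromosome 8 and 0.16 log2 with the deposited fold. The del-cIDR difference from WT was -0.03 log2, with overlap, and it was 0.09 log2 without del-cIDR replicate 2 and 0.04 log2 without WT replicate 1.

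**Figure D3:**
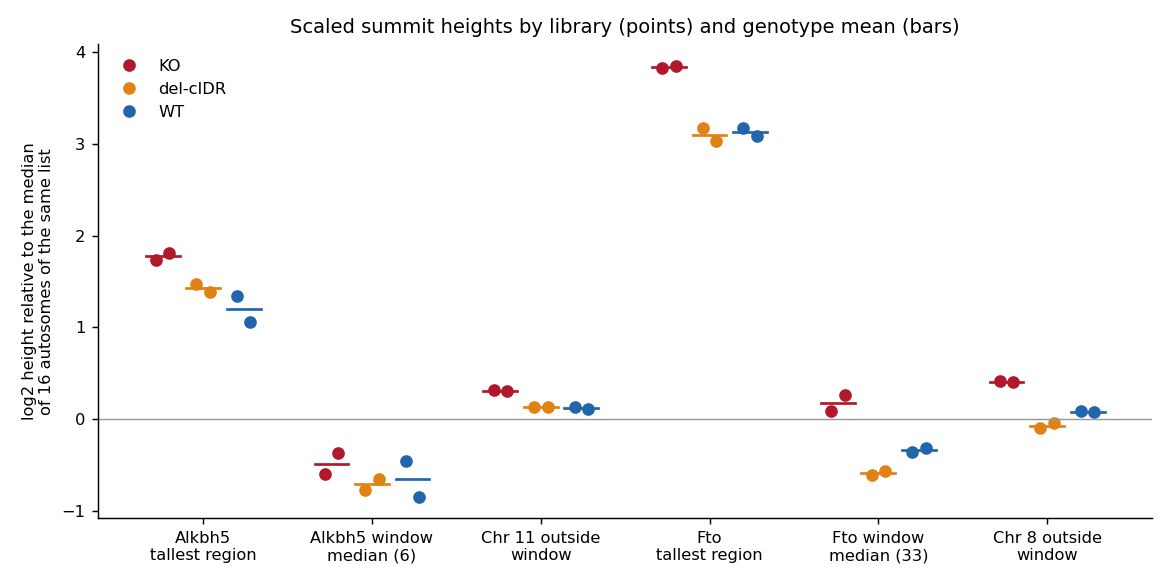
Log2 summit height relative to the median of 16 autosomes of the same list (vertical axis) for the tallest region of each window, the median over the regions of each window called in all 6 libraries (6 for Alkbh5, 33 for Fto) and the rest of the same chromosome; points are libraries and bars genotype means. The Fto window and the rest of chromosome 8 show the same order, KO above WT above del-cIDR, and the tallest Alkbh5 region has KO above both other genotypes.

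The same order held for chromosome 8 as a whole. On the 5634 regions of chromosome 8 outside the window that were called in all libraries, the median scaled height was 0.41 ± 0.01 in KO, -0.07 ± 0.03 in del-cIDR and 0.08 ± 0.01 in WT (SD, n = 2 each), a difference from WT of 0.33 log2 for KO and -0.15 log2 for del-cIDR. Over the 33 Fto regions the median was 0.17 ± 0.13 in KO, -0.58 ± 0.03 in del-cIDR and -0.33 ± 0.03 in WT (SD, n = 2 each), a difference of 0.51 log2 for KO and -0.25 log2 for del-cIDR. Relative to chromosome 8 in place of the autosomes, the window differences were 0.18 log2 for KO and -0.10 log2 for del-cIDR. With the deposited fold, which divides by the local background, the KO difference of the window was 0.11 log2. The tallest region compared likewise with its class: chromosome 8 regions of at least 150 tags had a median KO minus WT difference of 0.66 log2, with the highest decile from 0.84 upward, against 0.71 for the tallest Fto region. On the 16 autosomes the same class had a median of 0.34 log2.

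Of the 33 regions, 21 had both scaled KO heights above both WT heights (63.6%) and 2 had both below. On chromosome 8 outside the window 64.2% were above and 9.98% below, and on the 16 autosomes 36.5% and 22.7%. For del-cIDR, 13 of 33 regions had both heights below both WT heights (39.4%) and 4 had both above. On chromosome 8 outside the window 36.0% were below and 10.5% above, and on the 16 autosomes 20.1% and 23.6%. Both Fto shares were thus near those of the chromosome. Between the mutants, 26 of 33 regions had both KO heights above both del-cIDR heights (78.8%, against 73.6% on chromosome 8 outside the window), and none had both below (6.34% on chromosome 8 outside the window). On the 16 autosomes these shares were 34.6% above and 22.0% below.

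**Figure D4:**
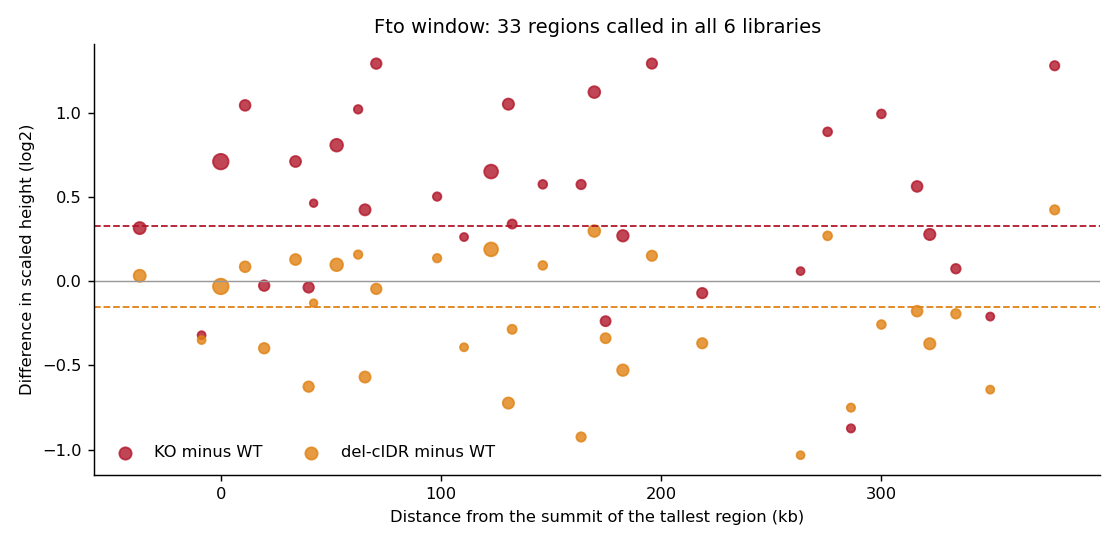
Difference in scaled log2 height from WT (vertical axis) of the 33 Fto regions called in all libraries, for KO and del-cIDR, against distance from the summit of the tallest region (kb); larger points are taller regions, and dashed lines give the difference over the rest of chromosome 8 (0.33 for KO, -0.15 for del-cIDR). KO differences ranged from -0.87 to 1.29 and del-cIDR differences from -1.03 to 0.42.

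The 5 regions with the highest fold ranks after the tallest one were called in all 6 libraries. The region from 92002931 to 92003307 ranked at the 98.0 to 99.8 percentile and held 78 and 50 tags in the KO libraries, 48 and 66 in del-cIDR and 55 and 64 in WT. These raw heights overlapped between all 3 genotypes, while the scaled heights of KO lay 0.31 log2 above WT without overlap. The region from 92162463 to 92163201 held 184 and 128 tags in the KO libraries, 131 and 114 in del-cIDR and 106 and 126 in WT, and its scaled height was 0.65 log2 above WT in KO. Both KO libraries were above both WT libraries. The region from 92092335 to 92092901 held 108 and 91 tags in the KO libraries, 66 and 67 in del-cIDR and 68 and 66 in WT. KO stood 0.81 log2 above WT there and del-cIDR 0.10 log2 above WT. The region from 92222549 to 92223031 held 76 and 37 tags in the KO libraries, 32 and 35 in del-cIDR and 52 and 52 in WT. The raw KO heights thus lay on both sides of WT. Its scaled heights were 1.20 and 0.57 in KO and 0.70 and 0.53 in WT, a KO difference of 0.27 log2 with overlap. On that scale del-cIDR was below WT (-0.53 log2). The region from 92209403 to 92210160 held 81 and 65 tags in the KO libraries, 43 and 47 in del-cIDR and 42 and 37 in WT, a KO difference of 1.12 log2. Among chromosome 8 regions called in all libraries, these 5 KO differences stood, in the order given, at the 40.6, 72.7, 86.2, 36.5 and 97.3 percentile. On chromosome 8 outside the window, 64.2% of regions had both KO heights above both WT heights.

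The regions with the extreme differences of the window were picked after their values were seen. The region from 92326065 to 92326724 held 9 and 12 tags in the KO libraries, 14 and 11 in del-cIDR and 23 and 22 in WT, the most negative KO difference of the window at -0.87 log2. Its WT height was above both mutants, which departs from the order of the chromosome. The region from 92170610 to 92170830, whose peaks were 177 to 215 bp wide, held 82 and 54 tags in the KO libraries, 19 and 24 in del-cIDR and 37 and 39 in WT. All 3 genotypes were apart there, with differences from WT of 1.05 log2 in KO and -0.72 log2 in del-cIDR. The region from 92303354 to 92303692 held 17 and 14 tags in the KO libraries, 7 and 9 in del-cIDR and 17 and 18 in WT, a del-cIDR difference of -1.03 log2.

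No region of the Fto window was called in both WT and neither KO library, against a background of 7.22% over all regions and 4.12% on chromosome 8. The opposite pattern, both KO and neither WT, held for 2 of 93 regions (2.15%, against 1.89% over all regions and 3.62% on chromosome 8). The first, from 92287958 to 92288138, held 10 and 11 tags in the KO libraries, and the second, from 92288939 to 92289320, held 9 and 10. These 2 are next to each other among the merged regions. Both WT and neither del-cIDR library had 4 of 93 regions (4.3%, against a background of 5.33% over all regions and 5.95% on chromosome 8), with 10 to 19 tags in WT. They start at 92053526, 92221437, 92278126 and 92425669. Both del-cIDR and neither WT library had 1 region, from 92352729 to 92353057, with 11 and 10 tags in del-cIDR (1.08%, against 0.931% over all regions and 0.571% on chromosome 8). Both KO and neither del-cIDR library had 7 regions (7.53%, against 3.5% over all regions and 7.15% on chromosome 8), and both del-cIDR and neither KO library had that 1 region (1.08%, against 3.59% over all regions and 1.45% on chromosome 8). When a single library was left out, so that 1 library stood for its genotype, the number called in WT and not in del-cIDR was 9 when either del-cIDR library was dropped, 14 when WT replicate 1 was and 13 when WT replicate 2 was. The number called in KO and not in WT then reached 6, and that called in WT and not in KO reached 8 without WT replicate 1. The number called in KO and not in del-cIDR was 13 when KO replicate 1 or del-cIDR replicate 2 was dropped and 15 when KO replicate 2 was, and 4 with the q limit or with lists of equal length. The number called in del-cIDR and not in KO was 2 when either KO library was dropped, 5 when del-cIDR replicate 1 was and 6 when del-cIDR replicate 2 was, and 0 with the q limit. The share over all regions is not given for these settings. The backgrounds above are for both libraries of each genotype and all listed peaks, so these counts cannot be read against them.

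The 33 regions called in all libraries were 35.5% of the window's regions, against 38.3% of all merged regions. They had a median width of 540 bp and a median mean height of 30.2 tags, and the 60 others had 210 bp and 10.0 tags; a call depends on height and a merged width on the number of calls, so this contrast is no finding. The highest summit of a region not called everywhere was 54 tags, in KO replicate 1 from 92090035 to 92090206, a peak also called in del-cIDR replicate 1 (29 tags) and in both WT libraries (36 and 43 tags). Summits of the regions called everywhere lay a median of 71 bp apart between the lowest and the highest library.

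The surroundings of the windows differed between the genes. In bins of 2 Mb along chromosome 11, the KO minus WT difference was positive in all 20 bins centred 48 to 6 Mb before the Alkbh5 window, with a median of 0.48 log2 (lowest 0.18). In the bin that holds Alkbh5 it was 0.01 log2, and in the 32 bins from 2 Mb before it to the end of the chromosome it ranged from -0.26 to 0.18. The bin centred 4 Mb before it was at 0.28 log2. Alkbh5 therefore lies outside that stretch. The flanks of its window, as medians over 1 Mb, differed from WT by -0.04 log2 before and 0.02 log2 after it in KO, beside 0.17 log2 for the window median. The 0.58 log2 of the tallest region is unlike these medians over regions of all heights. Its height class had a median of 0.18 log2 on the 16 autosomes and 0.25 log2 on chromosome 11. In del-cIDR the same flanks differed by -0.13 and -0.14 log2. On chromosome 8 the KO difference was positive in 58 of 59 bins, with 0.40 log2 in the bin of Fto, and the del-cIDR difference was negative in 57 of 59 bins. Over 1 Mb the Fto flanks differed from WT by 0.39 log2 before and 0.42 log2 after the window in KO, and by -0.19 and -0.003 log2 in del-cIDR.

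**Figure D5:**
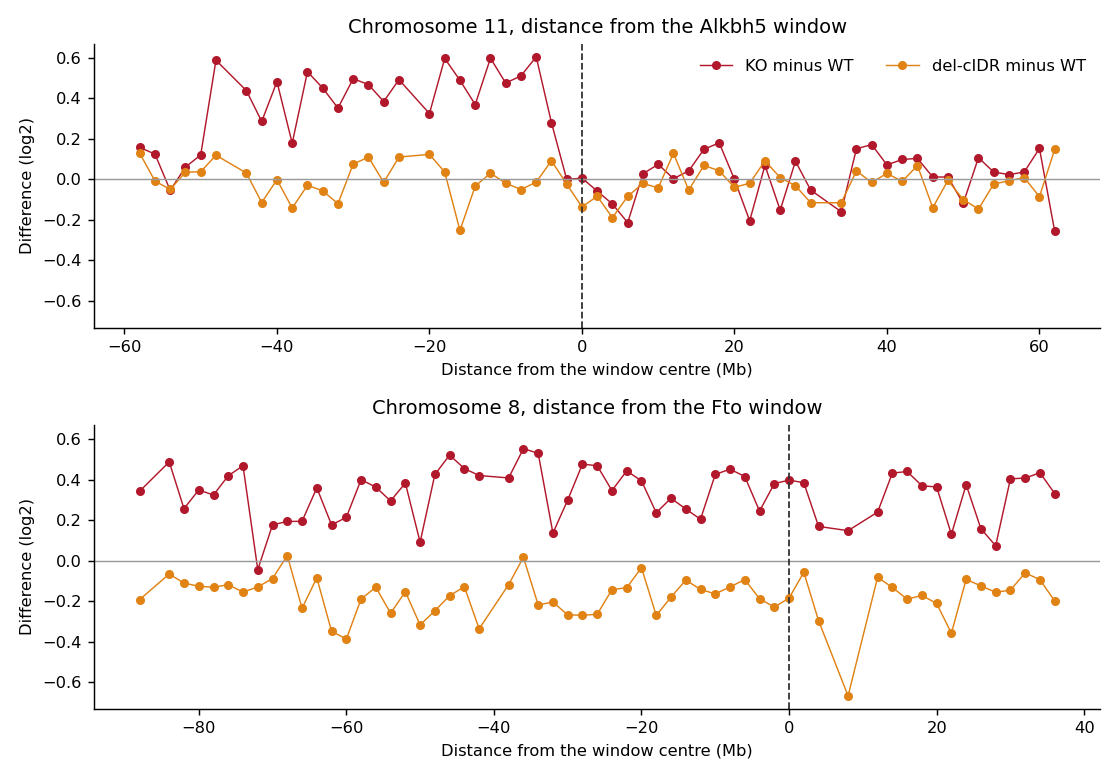
Difference from WT in median scaled log2 height per 2 Mb bin (vertical axis) for KO and del-cIDR along chromosome 11 and chromosome 8, against distance from the centre of the Alkbh5 or Fto window (Mb, dashed line); bins with under 20 regions are left out. On chromosome 11 the KO difference lies near 0 at Alkbh5 (0.01), and on chromosome 8 it is 0.40 at Fto.

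Relative to WT replicate 1, the depth estimated from the background and the narrowest peak of each list was 1.10 and 0.820 in KO, 0.975 and 0.959 in del-cIDR and 1.10 in WT replicate 2. The part of depth in the calls was not tested. These are bulk libraries, so fewer cells with an open region and less opening per cell cannot be told apart.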

How the data were processed

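ATAC-seq peak lists of 6 libraries were used, 1 list per library, with replicates not pooled. Per the submitters' processing notes, the tools were fastp, BWA, SAMtools, Picard, MACS2 and featureCounts and the build was GRCm39. The sources used here do not give their versions, their settings or any shift of reads to the cut site. For each peak the authors deposited a fold (ratio of the pileup over the local background), a −log10 p-value and a −log10 q-value, a score, which was 10 times the −log10 q rounded down in 99.9% or more of the peaks of each list, and a summit offset. All listed peaks had q of at most 0.05.

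Peaks on spike-in sequences were dropped, which left 150680 to 193905 mouse peaks per library. Summit heights in tags were solved from fold and p as the tag count n and background λ for which the fold is (n + 1)/(λ + 1) and p the Poisson probability of more than n. They came out whole within 0.1 tags in 100% of 1007167 peaks, and the solver was tested on simulated data. The depth is known only relative to other lists, from the background and the narrowest peak width. Heights carry counting error, which was not modelled. Peaks sharing at least 1 bp were merged. Calculations used Python 3.11.15, numpy 2.4.6, pandas 2.3.3, scipy 1.17.1 and matplotlib 3.10.9.

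No test between genotypes was made: an exact permutation test of 2 libraries against 2 cannot give a p below 0.333, and no model across regions was fitted. Autosomes 6, 8 and 11 were kept out of the scale. The alternatives were another scale, the fold, a q limit, equal list lengths, a stricter overlap, a height minimum and each library left out.

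The planned naming rule asked for regions at the start sites, regions in the Alkbh5 gene body, genotype-specific regions, the 5 highest Fto regions by mean fold percentile, and starts of neighbours. The reference tables are of GRCm38.p6, and positions were not converted. The tallest region of each window by mean height, chosen after the heights were seen, was reported in place of the start-site region. Whether it holds a gene start is not known here. Starts of neighbours, of other m6A genes and of cell type markers were not analysed here, so the cell type was not checked. The members and lists were chosen with earlier results of these data known.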

Additional observations from a re-analysis of the deposited data

How the results depend on the processing

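No paired analysis was possible because the results come from no test. Heights relative to the own chromosome gave KO minus WT differences of 0.39 log2 (tallest Alkbh5 region), 0.38 (tallest Fto region), 0.18 (Fto window) and -0.019 (Alkbh5 window, which thus turned its sign), and del-cIDR minus WT differences of 0.12 (tallest Fto region) and -0.10 (Fto window). The deposited fold gave 0.33, 0.16, 0.11 and 0.27 for the same KO differences, and for del-cIDR 0.051 (tallest Alkbh5 region), 0.087 (tallest Fto region) and -0.15 (Fto window). With −log10 q of at least 5 the KO difference of the Alkbh5 window was -0.055, and with a minimum mean height of 20 tags, tried only after the data had been seen, it was -0.30, while the del-cIDR difference of the Fto window was -0.34. The chromosome 11 scale includes the stretch before the Alkbh5 window where KO exceeded WT in every bin. The cause of these shifts was not tested.

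Leaving out each library in turn gave, for the tallest Alkbh5 region, 0.44 to 0.72 in KO and 0.11 to 0.39 in del-cIDR, for the Alkbh5 window -0.023 to 0.36 and -0.23 to 0.16, for the tallest Fto region 0.66 to 0.76 and -0.095 to 0.086, and for the Fto window 0.42 to 0.53 and -0.25 to -0.17.

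Calls also depended on the settings, and the share over all regions is not given for the settings below. In the Alkbh5 window, −log10 q of at least 5 gave 1 region in del-cIDR and not WT, 1 in WT and not KO and 0 in WT and not del-cIDR, and equal list lengths gave 1, 1 and 0 for these and 1 in KO and not WT. In the Fto window the q limit gave 0 in KO and not WT, 0 in del-cIDR and not WT and 1 in WT and not KO, and equal list lengths gave 2 in del-cIDR and not WT and 2 in WT and not del-cIDR. Leaving out a library gave, in the Alkbh5 window, 0 to 1 in KO and not WT, 0 to 1 in del-cIDR and not WT, 3 to 5 in WT and not KO and 1 to 2 in WT and not del-cIDR. In the Fto window it gave 2 to 6, 1 to 5, 0 to 8 and 4 to 14 for the same patterns. Between the mutants it gave 0 to 1 and 7 to 15 regions in KO and not del-cIDR, and 2 to 3 and 1 to 6 in del-cIDR and not KO, in the Alkbh5 and the Fto window in that order. With the stricter overlap the Alkbh5 window had 1 region in del-cIDR and not KO. Regions near the lowest listed height of 5 or 6 tags cannot be told from regions just below the calling limit.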

Other observations

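The Fto window held 4 regions that were tall for their width, with every peak under 250 bp and a mean height of at least 30 tags, and the Alkbh5 window held none. The windows hold 93 and 15 regions and the share of such regions elsewhere is not given, so the contrast is no finding. The region from 92161162 to 92161356 held 51 and 36 tags in the KO libraries, was not called in del-cIDR and held 19 tags in 1 WT library. It is the tallest of the 7 regions called in both KO and neither del-cIDR library. By fold, however, it ranked at the 48.4 and 42.8 percentile of the KO lists. The region from 92079793 to 92080065 held 33 and 31 tags in the KO libraries, 32 and 17 in del-cIDR and 47 and 32 in WT. The other two, from 92090035 to 92090206 and from 92170610 to 92170830, are given above.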
